A study of Rattus norvegicus albus with 6 samples.

Results

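The genes followed here encode the small leucine-rich proteoglycans lumican (Lum), decorin (Dcn), biglycan (Bgn), fibromodulin (Fmod) and osteoglycin (Ogn), the large proteoglycan versican (Vcan), the matricellular proteins periostin (Postn), osteonectin (Sparc) and tenascin C (Tnc), and fibronectin (Fn1). They were taken by gene symbol. Of the 10 genes, 9 had a probe set listed under exactly that symbol, 1 probe set each, out of 14322 genes named in this way. Tnc had none and was not analysed here. Of the 9, 8 were among the 10025 genes kept by a filter that leaves out the lowest 30% of mean levels, and Fmod lay under it.

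A small leucine-rich proteoglycan is a curved core protein that binds collagen fibrils and sets their spacing and width, and most carry sulfated sugar chains. Versican is a large chondroitin sulfate proteoglycan that binds hyaluronan and makes a loose, hydrated matrix. Periostin, osteonectin and tenascin C act more as signals and organisers within the matrix than as its scaffold, while fibronectin forms the fibrils on which cells and collagen assemble. In the liver a source of these proteins is the stellate cell, the fat-storing pericyte that turns into a matrix-producing myofibroblast after injury or on plastic.

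The cells were primary hepatic stellate cells of rats, fully activated by 7 days on plastic in low glucose medium with 10% serum, and every group shared that activation. One pair of groups received an adenovirus for DKK-1, a secreted antagonist of canonical Wnt signalling (Ad.DKK-1), or a virus for green fluorescent protein (Ad.GFP), each at a multiplicity of infection of 200 for 24 h in 5% serum and then 24 h without serum. The other pairs received ICG-001 at 10 µM or its vehicle, and FJ9 at 200 µM or its vehicle, each for 24 h without serum. ICG-001 blocks the partnership of β-catenin with the coactivator CBP, and FJ9 the binding of Dishevelled to Frizzled, and the series asks which genes the canonical pathway regulates. Every group was represented by 1 array, hybridised with RNA combined from 3 to 4 animals, and differences between 2 arrays therefore lack a replicate check. The sources used here do not give the promoter that drives the viral genes, the species of the DKK-1 sequence, or the strain and age of the rats.

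Levels are log2 values, and a difference is the treated array minus its own control unless another pair is named; a gene is counted as higher or lower at 1.5-fold or more, a log2 difference of 0.58 in size. Array medians ran from 7.01 to 7.28, and those of ICG-001 and its vehicle differed by −0.17, those of the vehicle for FJ9 and the vehicle for ICG-001 by −0.13. Of 12 stellate cell and myofibroblast markers, 11 had a probe set and all 11 were past the level filter, with Pdgfrb between 11.91 and 12.55 on the 6 arrays. Acta2 had none. Of 7 measured hepatocyte markers 1 was past the filter, of 8 macrophage markers 3, of 3 endothelial markers 1, of 4 cholangiocyte markers 3, of 4 lymphocyte markers 2 and of 7 portal fibroblast and mesothelial markers 4. In this bulk RNA fewer cells of a type and less RNA per cell cannot be told apart.

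Lumican was at least 1.5-fold below its control in each of the 3 treatments, the only member to be so. Lum read 9.17 with Ad.DKK-1 and 10.96 with Ad.GFP, 10.22 with ICG-001 and 11.54 with its vehicle, and 8.43 with FJ9 and 10.90 with its vehicle. All 3 treated arrays lay below all 3 control arrays. The differences were −1.79 for Ad.DKK-1 (3.46-fold lower), −1.32 for ICG-001 (2.50-fold lower) and −2.47 for FJ9 (5.54-fold lower). Few genes were as low in any of these comparisons, 129 of 10025 for Ad.DKK-1, 143 for ICG-001 and 49 for FJ9.

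The control arrays themselves were not level for Lum. The vehicle for FJ9 lay −0.64 from the vehicle for ICG-001, 1.56-fold lower, or −0.50 and within 1.5-fold with each array centred on its median. Set against the other compound's vehicle, ICG-001 differed by −0.68 and FJ9 by −3.11, so Lum was at least 1.5-fold lower with each compound whichever vehicle was used. At least 1.5-fold below both vehicles were 7.37% of genes with ICG-001 and 11.3% with FJ9. At least 1.5-fold lower in all 3 treatments were 315 genes, 3.14% of those past the filter, Lum among them. In 52 genes (0.519%), Lum included, all 3 differences were at or below −1.32.

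**Figure D1:**
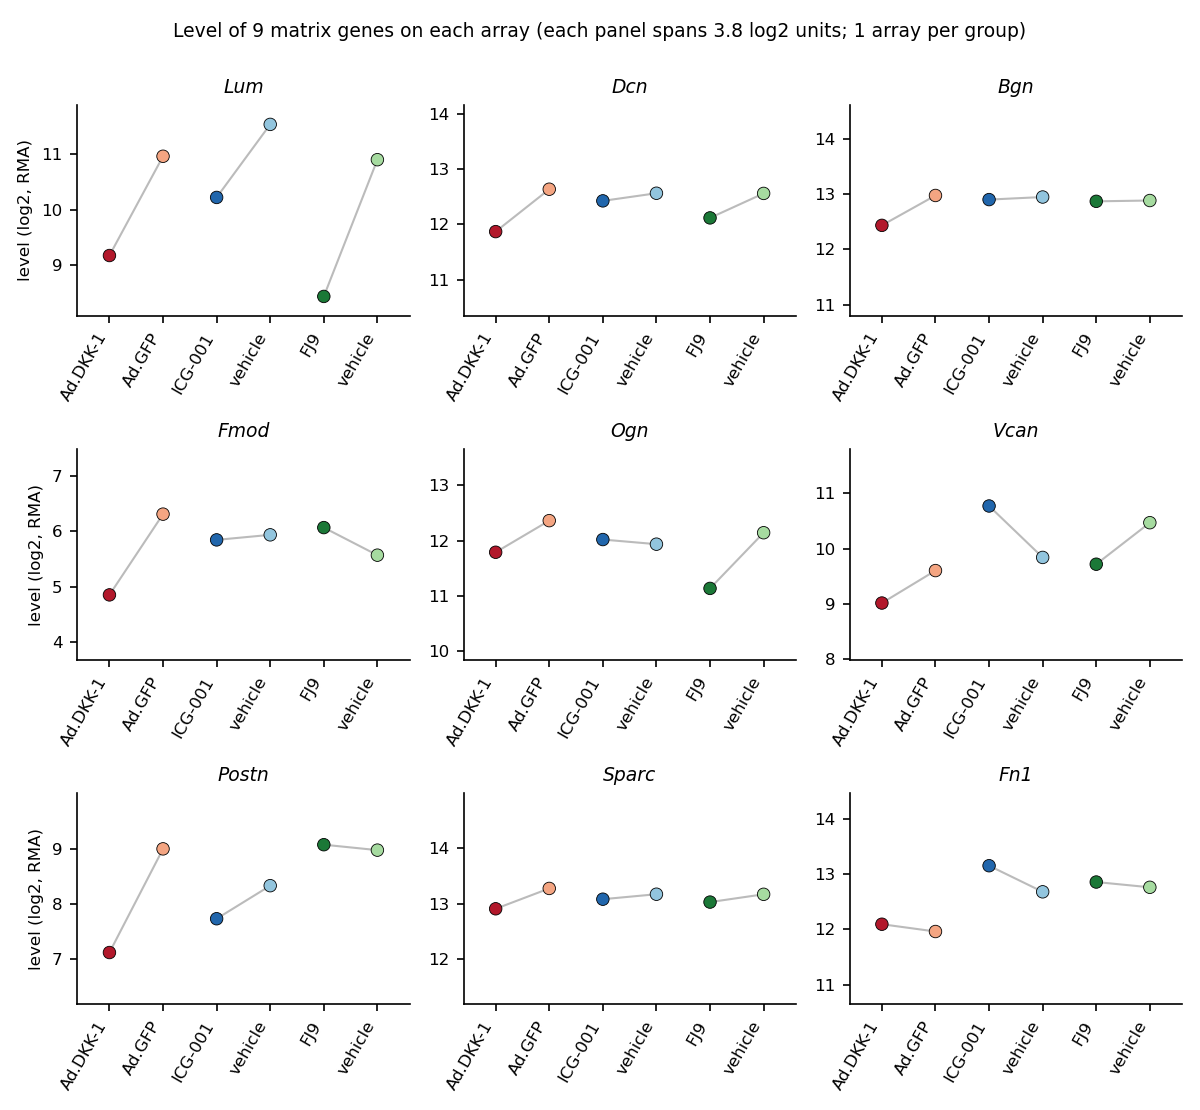
Level of each measured member on the 6 arrays, in log2 units, with 1 point per array and a line joining each treated array to its own control; every panel spans the same number of log2 units. Lum is lowest with FJ9 (8.43), and all 3 treated arrays lie below the controls, whereas Sparc stays between 12.91 and 13.28.

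Decorin and biglycan, the close relatives that carry chondroitin or dermatan sulfate chains, were lower in the Ad.DKK-1 pair and moved less elsewhere. Dcn read 11.87 with Ad.DKK-1 against 12.64 with Ad.GFP, 12.43 with ICG-001 against 12.56, and 12.12 with FJ9 against 12.56. Its differences were −0.77, −0.14 and −0.44, and the vehicle for FJ9 differed from that for ICG-001 by −0.0034, so that again each treated array lay below every control array. Only the first was past 1.5-fold.

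Bgn read 12.43 with Ad.DKK-1 against 12.97 with Ad.GFP, 12.90 with ICG-001 against 12.95, and 12.87 with FJ9 against 12.88. The differences were −0.54, −0.05 and −0.01, all within 1.5-fold, and the Ad.DKK-1 array stood below the other 5, which ran from 12.87 to 12.97. Bgn lay 0.48 below the highest value of its array where it came closest. Whether the top of the scale limited its values was not tested.

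Osteoglycin, a corneal and bone proteoglycan also made by fibroblasts, was lowest with FJ9. Ogn read 11.14 with FJ9 against 12.14 with its vehicle, a difference of −1.0053 (2.01-fold lower), and −0.80 against the other vehicle. With Ad.DKK-1 it read 11.79 against 12.36 (−0.57), just within 1.5-fold, and with ICG-001 12.02 against 11.94 (0.08). The 2 lowest arrays were thus FJ9 and Ad.DKK-1, and ICG-001 lay between the vehicle arrays.

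Fibromodulin, which is built like lumican, was weakly measured. Fmod read 4.85 with Ad.DKK-1 and between 5.57 and 6.31 on the other 5 arrays, all under the filter level of 6.39. The Ad.DKK-1 difference of −1.46 therefore sits near the floor of the scale at 4.00, where 26.9% of the 4297 genes under the filter were also at least 1.5-fold lower in that pair. With ICG-001 Fmod differed by −0.09, and with FJ9 by 0.50.

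Versican lay on opposite sides of its control with the 2 compounds, and the vehicle arrays differed as well. Vcan read 9.02 with Ad.DKK-1 against 9.60 with Ad.GFP, 10.77 with ICG-001 against 9.84, and 9.72 with FJ9 against 10.47. The differences were −0.59 for Ad.DKK-1, 0.93 for ICG-001 and −0.75 for FJ9 (1.68-fold lower). The vehicle for FJ9 stood 0.63 above the vehicle for ICG-001, and against the other compound's vehicle the difference was 0.30 for ICG-001 and −0.12 for FJ9, both within 1.5-fold. ICG-001 was the highest array and Ad.DKK-1 the lowest, while FJ9 lay below both vehicle arrays. The Ad.DKK-1 value was at the edge of the 1.5-fold limit. It became −0.49 with each array centred on its median and −0.57 with cyclic loess, both within 1.5-fold. Of 10025 genes, 81 (0.808%) were at least 1.5-fold higher with ICG-001 and lower with FJ9 against their own vehicles.

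Periostin, a matricellular protein abundant in myofibroblasts, was further below its control in the Ad.DKK-1 pair than any other member, just beyond Lum (−1.79). With repeated quantile normalization that order turned, at −1.76 for Postn and −1.79 for Lum. Postn read 7.12 with Ad.DKK-1 against 8.9953 with Ad.GFP, 7.73 with ICG-001 against 8.33, and 9.07 with FJ9 against 8.97. The Ad.DKK-1 difference was −1.87 (3.66-fold lower), and 113 of 10025 genes were as low. With ICG-001 the difference was −0.60 against its own vehicle and −1.24 against the vehicle for FJ9, which was itself 0.64 higher than the vehicle for ICG-001. The former value ended within 1.5-fold, at −0.42, when each array was centred on its median. With FJ9 the difference was 0.10 against its own vehicle and 0.74 against the other, so that array was not below either vehicle.

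Osteonectin and fibronectin stayed within 1.5-fold of their controls in all 3 treatments, as did Bgn and 40.8% of all genes. Sparc, a calcium- and collagen-binding glycoprotein, read 12.91 with Ad.DKK-1 against 13.28, 13.08 with ICG-001 against 13.17, and 13.03 with FJ9 against 13.17. Its differences were −0.37, −0.09 and −0.14, with each treated array below every control array on the deposited scale. On at least 1 array it lay within 0.18 of the highest value of that array.

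On the deposited scale Fn1 differed more between the virus arrays and the rest than between any treatment and its control. It read 12.09 with Ad.DKK-1 against 11.96 with Ad.GFP, 13.15 with ICG-001 against 12.68, and 12.85 with FJ9 against 12.76. The differences were 0.13, 0.47 and 0.10, all above 0, and that for ICG-001 was 0.64 with each array centred on its median. As deposited, Ad.GFP lay −0.72 from the vehicle for ICG-001 and −0.80 from the vehicle for FJ9, more than 1.5-fold lower than both. So were 364 of 10025 genes (3.63%). The medians of these arrays were 7.11 for Ad.GFP, 7.28 for the vehicle for ICG-001 and 7.15 for that for FJ9. These differences were not taken again with median centring. Virus, serum and time in culture differ together between those arrays and cannot be told apart. For Vcan the same differences were −0.24 and −0.86, and for Postn 0.66 and 0.02.

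**Figure D2:**
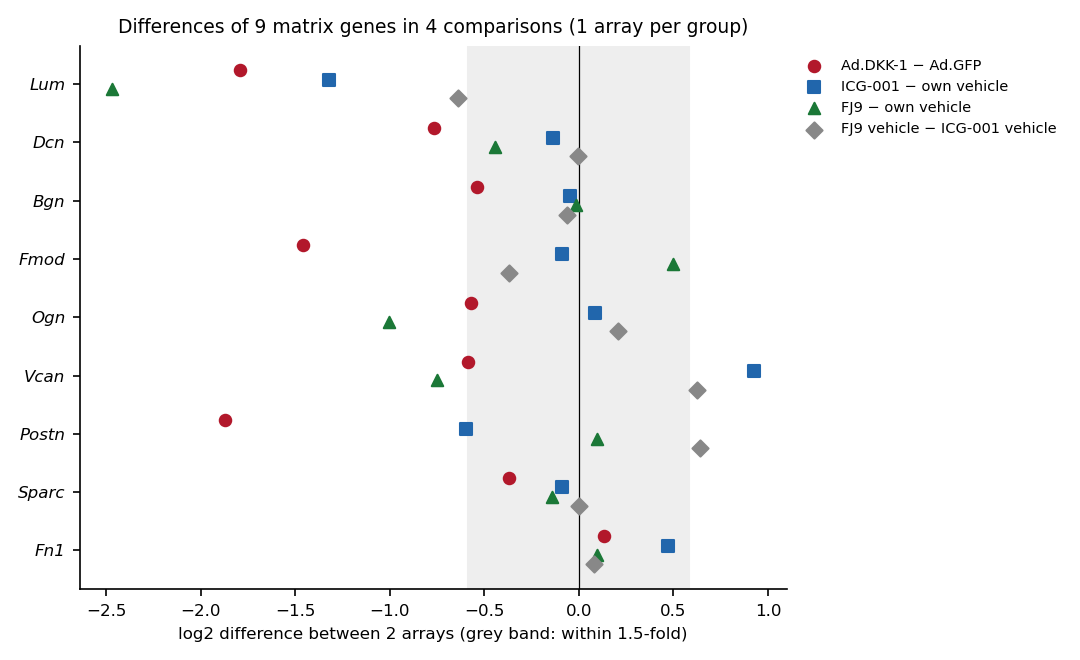
Log2 difference of each measured member in 4 comparisons, 1 array against 1 array; the grey band marks differences within 1.5-fold. Lum lies left of the band in all 4 comparisons on the deposited scale (−0.50 between the vehicles with median centring), while Vcan lies on opposite sides with ICG-001 (0.93) and FJ9 (−0.75).

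Counted over the 9 measured members, 5 were at least 1.5-fold lower with Ad.DKK-1 (Lum, Dcn, Fmod, Vcan and Postn) and none higher. Among all genes past the filter 20.8% were lower and 14.5% higher. Fmod lay under that filter, and of the 8 members past it 4 were lower, or 3 with median centring or cyclic loess. With ICG-001, 2 were lower (Lum and Postn) and 1 higher (Vcan), against 13.1% and 12.6%. With FJ9, 3 were lower (Lum, Ogn and Vcan) and none higher, against 14.8% and 11.6%. Between the vehicle arrays 2 members were higher on the vehicle for FJ9 (Vcan and Postn) and 1 lower (Lum, within 1.5-fold with median centring), against 2.44% and 5.2%. With each array centred on its median the split of all genes, higher to lower, was 1874 to 1681 instead of 1449 to 2082 with Ad.DKK-1, 2218 to 754 instead of 1267 to 1314 with ICG-001, and 575 to 265 instead of 245 to 521 between the vehicles. The median difference over the members was −0.59 for Ad.DKK-1, −0.09 for ICG-001, −0.14 for FJ9 and −0.0015 between the vehicles, beside −0.07, 0.01, 0.01 and 0.02 for all genes. The ICG-001 median was above 0 under each other scaling, from 0.01 to 0.09. With so few members, and as many past 1.5-fold between the vehicles as with either compound, these counts describe the arrays and were not tested.

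Whatever the size, 4 members were below their control in all 3 treatments (Lum, Dcn, Bgn and Sparc), as were 23.4% of genes, and 1 was above in all 3 (Fn1), as were 23.6%. The signs of Lum and Fn1 held under each other scaling, whereas with ICG-001 and median centring Dcn differed by 0.04, Bgn by 0.13 and Sparc by 0.08, and Bgn was also above 0 with ICG-001 under the other 2 scalings and with FJ9 under cyclic loess (0.03). The only test the design allows asks whether the mean of the 3 differences is 0, with the pair as a block in limma, and it treats 3 different treatments as if they were repeats. It called 8.58% of 10025 genes, 5.02% as lower, and 1 of the 8 members past the filter. Lum had a mean difference of −1.86 ± 0.22 (SE), lower in 3 of 3 pairs, with an adjusted p of 0.000227 in limma after Benjamini-Hochberg correction over all genes, and between 1.51e-06 and 0.0114 over the alternatives. Postn followed at −0.79 ± 0.31, lower in 2 of 3 pairs, with an adjusted p of 0.132 in limma, which became 0.00593 without the FJ9 pair and reached 0.668 over the alternatives. The mean was −0.45 ± 0.19 for Dcn and −0.50 ± 0.21 for Ogn, with adjusted p of 0.155 and 0.162 in limma. For Vcan, Bgn, Sparc and Fn1 the adjusted p in limma ran from 0.441 to 0.782.

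**Figure D3:**
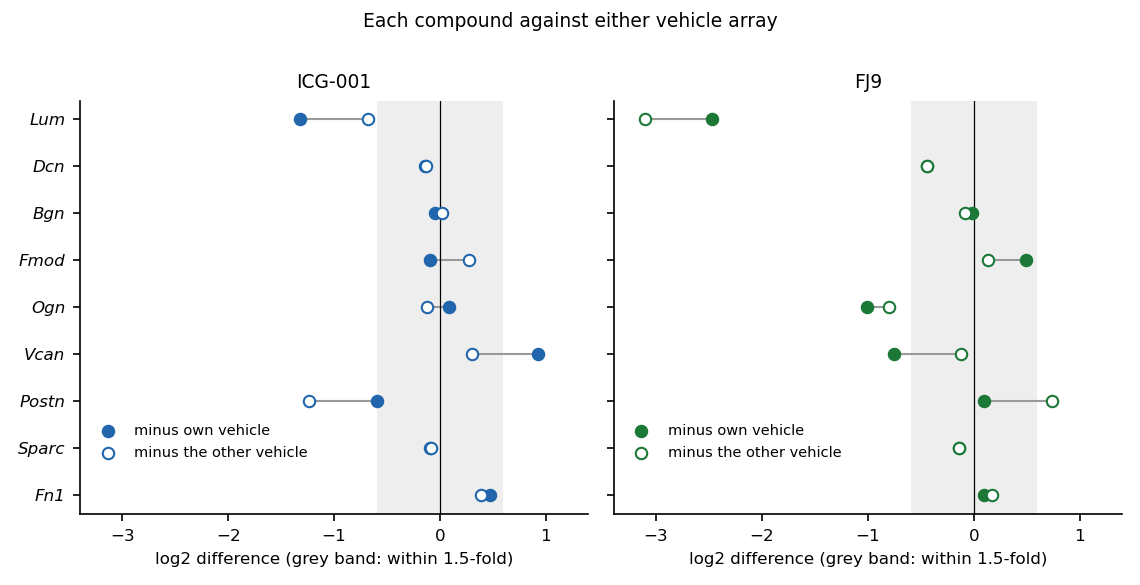
Log2 difference of each member for ICG-001 (left) and FJ9 (right), against the compound's own vehicle (filled) and against the other vehicle (open); grey marks differences within 1.5-fold. Lum stays left of the band with either vehicle, whereas Vcan enters it for both compounds when the vehicle is exchanged.

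Across the 6 arrays the members followed more than 1 pattern. Dcn and Sparc ran most alike (Pearson r = 0.957 over 6 arrays), followed by Dcn and Bgn (0.867) and Dcn and Lum (0.864), while Fn1 and Ogn ran apart (−0.337). Lum and Postn, the members furthest from Ad.GFP in the Ad.DKK-1 array, had an r of only 0.185. The genes whose 6 levels followed those of Lum most closely were the phosphatase Cdc14b (r = 0.997), the sterol regulator Srebf2 (0.995), the transcription factor Sox5 (0.994), the sterol enzyme Hsd17b7 (0.992) and the early growth response gene Egr2 (0.992). These are descriptions over 6 arrays that were normalised together, and the genes were picked as the most alike of 10025.

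Lumican, decorin, osteoglycin and fibromodulin lie beside relatives in the genome, in the gene order of the RefSeq assembly GRCr8. Dcn, Lum, Kera (keratocan) and Epyc (epiphycan) follow each other, as do Optc (opticin), Prelp and Fmod, and Ogn, Omd (osteomodulin) and Aspn (asporin). Neighbours did not share 1 profile. Kera read between 5.08 and 5.82 and Epyc between 4.69 and 5.44, and both, named for their position, were under the level filter.

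Prelp, a collagen-binding relative, read 11.49 with Ad.DKK-1 against 12.73, 12.35 with ICG-001 against 12.83, and 10.86 with FJ9 against 12.84. The differences of −1.25, −0.48 and −1.98 had the same signs as those of Lum, and Prelp differed by only 0.02 between the vehicles. Optc, next to it, differed by −1.76 and −1.96 with Ad.DKK-1 and FJ9 and by 0.67 with ICG-001, which was 0.29 and within 1.5-fold against the other vehicle. Fmod, the third of that group, differed by 0.50 with FJ9.

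In the osteoglycin group the FJ9 array was lower for Omd as well. Omd read 4.96 with FJ9 against 7.42 with its vehicle, a difference of −2.47, and −1.81 against the other vehicle. That FJ9 level is under the filter level of 6.39 and near the floor of 4.00. Aspn, a collagen-binding proteoglycan, differed by −0.92 with Ad.DKK-1, −0.28 with ICG-001 and −0.35 with FJ9. All 3 genes of that group were below Ad.GFP on the Ad.DKK-1 array.

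**Figure D4:**
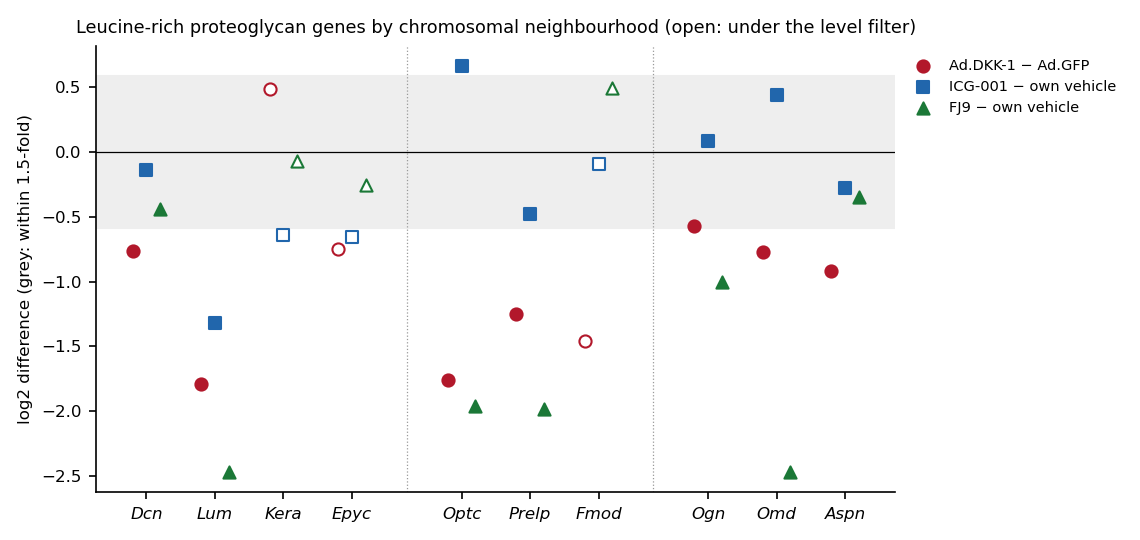
Log2 differences from the own control for leucine-rich proteoglycan genes, grouped by the 3 sets of neighbours in the rat genome; open symbols are genes under the level filter and grey marks differences within 1.5-fold. Lum, Prelp, Optc and Omd reach −1.96 or below with FJ9, while Dcn and Aspn stay within 1.5-fold there.

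Over the whole list of other small leucine-rich proteoglycans, 9 of 13 had a probe set and 6 were past the filter. All 6 were at least 1.5-fold lower with Ad.DKK-1 (5 of 6 with median centring), beside 20.8% of all genes, with 7 of the 9 lower when genes under the filter are included, and the median over the 6 was −1.08. Optc and Nyx (nyctalopin) were below the filter level on that array, at 5.58 and 5.67. With FJ9, 3 of 6 were lower and none higher, beside 14.8% and 11.6% of all genes. With ICG-001, 1 was higher (Optc) and 1 lower (Nyx, −0.65), beside 12.6% and 13.1% of all genes. Both were within 1.5-fold against the other vehicle (Optc 0.29, Nyx −0.08), Nyx also under each of the other scalings.

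Other proteoglycan core proteins and link proteins had 16 of 25 measured genes past the filter. With Ad.DKK-1 9 were lower and 1 higher, beside 20.8% and 14.5% of all genes. The lower genes were led by agrin (Agrn, −1.46), a heparan sulfate proteoglycan, betaglycan (Tgfbr3, −1.39), which presents TGF-β to its receptors, and syndecan 3 (Sdc3, −1.27). With FJ9 7 were lower and 1 higher, beside 14.8% and 11.6% of all genes. The lower genes were led by the cell-surface syndecans Sdc3 (−1.35), Sdc4 (−1.30) and Sdc2 (−1.06). Against the other vehicle Agrn (−0.56) and the higher gene, Hapln2 (−0.07), were within 1.5-fold. With ICG-001 4 were lower and none higher, beside 13.1% and 12.6% of all genes. The largest differences were those of the link protein gene Hapln4 (−1.10), Sdc4 (−0.89) and Sdc2 (−0.74), while Bcan was −0.20 against the other vehicle. Sdc2 and Sdc4 were thus at least 1.5-fold lower in each treatment, and they remained so against the other vehicle with both compounds, although Sdc2 with ICG-001 was −0.57 with each array centred on its median.

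Of 16 other matricellular and adhesive genes measured, 11 were past the filter. Of these 4 were lower and none higher with Ad.DKK-1, beside 20.8% and 14.5% of all genes. Sparcl1, the closest relative of Sparc, differed by −2.46 there and Smoc2, a calcium-binding relative, by −1.82, while Sparc itself differed by −0.37. With FJ9 4 were lower and none higher, beside 14.8% and 11.6% of all genes. Among the lower were the CCN genes Ccn3 (−2.35), Ccn4 (−1.69) and Ccn5 (−0.94). Ccn4, a Wnt-inducible gene, differed by −0.51 against the other vehicle. With ICG-001 Smoc2 (−0.94) and Smoc1 (−0.84) were lower and Ccn5 (0.74) higher, beside 13.1% and 12.6% of all genes. With genes under the filter included, 3 of the 16 were lower and 3 higher. The largest of these differences was that of Efemp1, whose mean level was under the filter. It read 8.70 with ICG-001 against 5.71 with its vehicle, a difference of 2.99, and 3.26 against the other vehicle. Smoc1 was −0.18 against the other vehicle.

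Enzymes that build chondroitin and dermatan sulfate, the chains of decorin, biglycan and versican, had 19 of 22 measured genes past the filter. With FJ9 9 were lower and none higher, beside 14.8% and 11.6% of all genes, with a median of −0.47. Against the other vehicle Chst11 (−0.28) and Papss1 (−0.50) were within 1.5-fold. Among the lower were Xylt1 (−1.36), which starts the chain on the core protein, and the sulfotransferases Chst12 (−1.19) and Ust (−1.08). All 3 stayed past 1.5-fold against the other vehicle. Chst12 read 6.18 with FJ9, under the filter level. With Ad.DKK-1 5 were lower and 3 higher, beside 20.8% and 14.5% of all genes. The lower included the other xylosyltransferase Xylt2 (−1.22) and the dermatan sulfotransferase Chst14 (−1.02). Csgalnact2 (0.92), which commits the chain to chondroitin, led the higher ones. With ICG-001 5 were lower and 2 higher, beside 13.1% and 12.6% of all genes. The lower included Papss2 (−1.09), which makes the sulfate donor, and Chst12 (−0.88). Among the higher was B3galt6 (0.77) of the linker, which was 0.43 against the other vehicle. With median centring the ICG-001 count was 2 lower and 3 higher. Between the vehicles 0 of these 19 genes was past 1.5-fold, beside 7.64% of all genes.

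**Figure D5:**
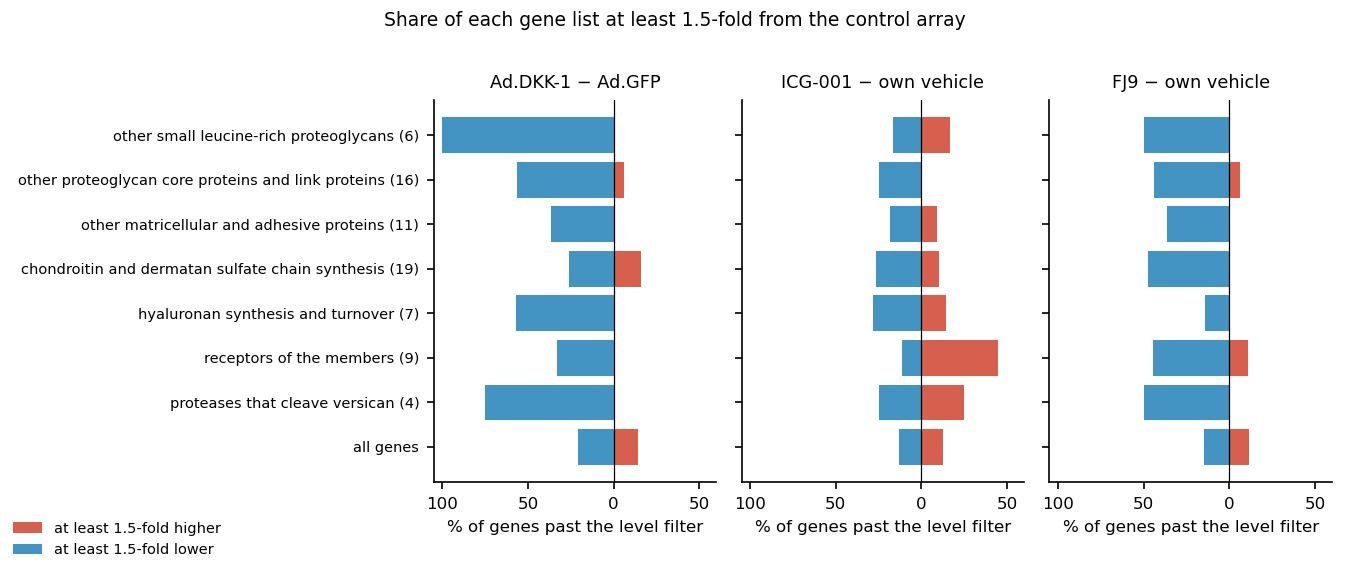
Share of each related gene list, with the number of its genes past the level filter in brackets, that was at least 1.5-fold higher (red, to the right) or lower (blue, to the left) than the control, for 3 treatments, with all genes at the bottom. Lists of 4 to 19 genes make coarse shares, and the receptor list has 4 of 9 genes higher with ICG-001, of which Itga4 and Egfr were within 1.5-fold against the other vehicle.

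Hyaluronan, the partner of versican, is made and cut by a list with 7 of 9 measured genes past the filter. With Ad.DKK-1 4 were lower and none higher, beside 20.8% and 14.5% of all genes. The lower were the hyaluronan-degrading Cemip2 (−1.88), Hyal1 (−1.36), Hyal2 (−0.93) and also Hyal3. With ICG-001 the synthase Has2 was higher (0.98) and Cemip2 (−0.99) and Hyal1 (−0.72) were lower, beside 12.6% and 13.1% of all genes. Against the other vehicle Has2 differed by 0.57, just within 1.5-fold, and Hyal1 by 0.11. With FJ9 1 gene was lower, Cemip2 (−1.24), and none higher, beside 14.8% and 11.6% of all genes.

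Receptors that bind the members had 9 of 13 listed genes measured, all past the filter. The integrin subunit Itgb5, which pairs with the αv chain to bind periostin and other matrix proteins, was lower in each treatment, by −1.46 with Ad.DKK-1, −1.32 with ICG-001 and −1.88 with FJ9, with values of −1.33 and −1.88 for the compounds against the other vehicle. With ICG-001 4 receptor genes were higher and 1 (Itgb5) lower, beside 12.6% and 13.1% of all genes. The higher were led by Met (2.17), the receptor of hepatocyte growth factor, which decorin also binds, and the hyaluronan receptor Cd44 (1.58). Met and Cd44 stayed past 1.5-fold against the other vehicle (1.85 and 1.44), while the others, Itga4 (0.22) and Egfr (0.53), did not. With Ad.DKK-1 the fibronectin receptor subunit Itga5 (−0.98) and Tlr2 (−0.75), to which biglycan and versican bind, were lower too. That made 3 of 9 lower and none higher, beside 20.8% and 14.5% of all genes. With FJ9 Tlr2 (−2.21), Itgb5 and the integrin subunits Itga4 (−1.69) and Itga5 (−0.51 against the other vehicle) were lower. Tlr4 was higher at 0.59, at the edge of the 1.5-fold limit (0.36 against the other vehicle). The FJ9 count was thus 4 of 9 lower and 1 higher, beside 14.8% and 11.6% of all genes. With repeated quantile normalization or cyclic loess the number higher was 0. Tlr2 read 6.105 with FJ9, under the filter level, and had differed by 1.43 between the vehicles.

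Of the proteases that cleave versican, 4 of 5 measured were past the filter. Lower were 3 with Ad.DKK-1, 1 with ICG-001 and 2 with FJ9, beside 20.8%, 13.1% and 14.8% of all genes. With ICG-001 1 was higher, beside 12.6%. Adamts5, the measured protease under the filter, was above its control in each treatment, by 0.75 with Ad.DKK-1, 0.62 with ICG-001 and 1.04 with FJ9. Against the other vehicle it differed by 0.35 with ICG-001 and 1.31 with FJ9. Adamts1 was higher with ICG-001 (1.92), the array on which Vcan was highest, and 1.66 higher against the other vehicle. Adamts4 was lower in each treatment, by −1.75 with Ad.DKK-1, −1.12 with ICG-001 and −0.90 with FJ9. Its levels on those treated arrays, 5.74, 5.69 and 6.20 in the same order, were all under the filter level. Adamts9 was lower with Ad.DKK-1 (−1.04) and FJ9 (−1.26), and Adamts15 with Ad.DKK-1 (−1.54).

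Most marker lists had a lower summed level on each treated array than on its control. With FJ9 the hepatocyte sum (42.1 against 41.7) and the lymphocyte sum (27.2 against 26.5) were higher. The summed log2 level of the 8 macrophage markers was 46.1 with Ad.DKK-1 and 54.6 with Ad.GFP, 46.7 with ICG-001 and 52.2 with its vehicle, and 49.6 with FJ9 and 53.3 with its vehicle. Markers under the filter count in this sum, and no marker sum was taken again under another scaling. Of the 3 past the filter, Cd68, Csf1r and Lyz2, all were at least 1.5-fold lower with Ad.DKK-1 and Csf1r with each compound. Csf1r read 6.05 with Ad.DKK-1, 5.74 with ICG-001 and 5.96 with FJ9, each under the filter level. Clec4f, the Kupffer cell marker, read at most 6.17 on any array. The summed level of the 11 stellate and myofibroblast markers was 123.6 against 129.1, 126.1 against 128.8 and 119.7 against 126.7 in the same order. Of the 11, 5, 1 and 4 were at least 1.5-fold lower and none higher. Among all genes 20.8%, 13.1% and 14.8% were lower. Lrat, the retinol-esterifying enzyme of stellate cells, differed by −1.31, −1.42 and −3.34, and Col1a1 by −0.19, −0.18 and −0.23. Des differed by 0.31, 0.33 and −0.88, and Vim by 0.02, 0.05 and 0.04. The part of these markers in the members' differences was not tested.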

How the data were processed

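Total RNA of 6 pools was copied to single-stranded DNA, biotin-labelled and hybridised to Affymetrix arrays, per the labels' protocols. Each probe set has 1 log2 value per array, deposited as the authors' RMA output (Affymetrix Expression Console is named in the submitters' processing notes), and these values were used unchanged. No source here gives versions or detection calls. Of 26988 probe sets 15092 had 1 gene symbol, 323 several, and 11573 are unnamed here. Entrez identifiers of 15062 matched the RefSeq table of GRCr8, used for names and gene order alone, and 0 symbols changed. For 497 genes with several probe sets the one with the highest mean was used. Counts over all genes leave out those whose mean level is among the lowest 30%, at or below 6.39.

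Log2 differences were counted at 1.5-fold. With 1 array a group there is no test of a single treatment. Over the 3 pairs, limma 3.58.1 (R 4.3.3; lmFit, then eBayes with trend) tested the mean difference, each pair being a block, at a two-sided Benjamini-Hochberg adjusted p of 0.05. It has 2 residual degrees of freedom and borrows most of its error estimate from other genes. It was tested on simulated data with the same change in all 3 treated arrays and 1 noise level for all genes. That setting does not cover treatments that differ, so it cannot vouch for the p-values here. The number of arrays limits the precision.

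The members and lists were chosen with earlier results of these data known. The rule names all members, the 3 largest differences of each list per comparison among genes past the filter and 1.5-fold, and the 5 genes most alike to the member with the widest range; genomic neighbours, markers and other list members named beside a count were chosen after their values were seen. Alternatives were median centring, repeated quantile normalization, cyclic loess, mean of probe sets, a lower (log2 0.32) and a higher (2-fold) threshold, no filter, the other vehicle, no block, no trend and each pair left out. No sequences were used here.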

Additional observations from a re-analysis of the deposited data

Results flagged for a closer look

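Vcan went opposite ways in 2 treatments, past 1.5-fold each time on the deposited scale. Its log2 difference was −0.59 with Ad.DKK-1 and 0.93 with ICG-001, and −0.75 with FJ9. The Ad.DKK-1 value was within 1.5-fold with median centring (−0.49) and with cyclic loess (−0.57). Each side is 1 array against 1 array, so neither the contrast of ICG-001 with Ad.DKK-1 nor that with FJ9 was tested. The doses of the compounds differ (10 µM and 200 µM). Against the other vehicle the values were 0.30 for ICG-001 and −0.12 for FJ9, of the same signs and within 1.5-fold.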

How the results depend on the processing

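At a lower threshold, a log2 difference of 0.32, the members past the threshold were 8 with Ad.DKK-1 and 5 with FJ9, and the genes 6248 with Ad.DKK-1, 5442 with ICG-001, 5228 with FJ9 and 2771 between the vehicles. At 2-fold they were 3 members with Ad.DKK-1, 1 with ICG-001 and 0 between the vehicles, and 1193, 619, 846 and 114 genes. Without the level filter 5314 genes of 14322 were past 1.5-fold with Ad.DKK-1 and 1533 between the vehicles. With the filter 3531 and 766 of 10025 were. The limma test called 860 genes, 538 with median centring, 422 with no replicate block and 570 to 722 with a pair left out, and 1 to 2 members with a pair left out (570 without the ICG-001 pair; 2 members, Lum and Postn, without the FJ9 pair); the cause was not tested. The split of higher to lower genes between the vehicles, 245 to 521, was also 456 to 409 with repeated quantile normalization and 380 to 321 with cyclic loess. The labels give no replicate numbers, so the pairing is that of a treatment with its own control. Lum, Dcn, Bgn, Fmod, Ogn and Sparc kept their side of 1.5-fold in all 3 treatments under the 3 scalings and the mean of probe sets. Of 67 differences named from the lists, 62 stayed past 1.5-fold under all 3 scalings and 0 changed sign. The depth limit is the floor of 4.00, near which Fmod lay.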

Other observations

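Several related genes differed between the vehicle arrays, which received no compound. On the vehicle for FJ9, Tlr2 was higher than on the vehicle for ICG-001 by 1.43, Ccn4 by 1.17, Gpc3 by 0.73, Omd by 0.66 and Ccn3 by 0.63, while Hyal1 differed by −0.83, Hapln2 by −0.77, Esm1 by −0.70 and Smoc1 by −0.67. Esm1 and Smoc1 were within 1.5-fold with median centring, Smoc1 also with cyclic loess. Each value is 1 array against 1 array and was not tested.

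Tgfbr3 and the Dickkopf family gene Dkk3 were among the 5 genes whose 6 levels ran most like those of Dcn (r = 0.995 and 0.994 over 6 arrays), and Pdgfrb among those most like Bgn (0.988). Tgfbr3 differed by −1.39 with Ad.DKK-1, −0.33 with ICG-001 and −0.90 with FJ9, and Dkk3 by −1.50, −0.24 and −0.72. These genes were picked from 10025 after their values were seen and support no shared function.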
